A study of Mus musculus with 9 samples.

Results

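RNA-seq expression profiles of mouse cells labelled as overexpressing S100A8 mutated at residue 69 (OEA8_69) were compared with those of their labelled overexpression control (OEA8_Ctrl), to see which transcripts go with an exchange at that position. Genes that averaged 0.5 FPKM or more in these 6 libraries are described, which were 12021 of the 19240 in the table. FPKM is a fragment count divided by transcript length in kilobases and by the number of mapped fragments of the library. A log2 fold change in this text is a difference between group means of log2(FPKM + 1). At low levels it is smaller in size than the log2 ratio of the FPKM themselves, so it does not rank low genes against abundant ones by fold. Each group held 3 libraries, as did the group mutated at residue 67 (OEA8_67), which shared the estimate of the spread and with which OEA8_69 was also compared. By the labels, OEA8_69 carried an overexpressed point mutant of S100A8 and OEA8_Ctrl was an overexpression control, without saying whether that control held the unmutated protein or an empty vector. The study describes its reference cells as mouse embryonic fibroblasts (MEFs) that overexpress S100A8, and both mutated residues were picked by docking of glycyrrhizic acid, a saponin of licorice root, onto a model of the protein. Drug treatment is not part of these labels. They do not say either whether replicates are independent cultures, and the p-values cover no more than the variation among these libraries, which could be technical.

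S100A8 binds calcium through EF-hands, and neutrophils and monocytes hold it in large amounts, mostly paired with S100A9. Outside the cell the pair acts as a danger signal, and TLR4 and the receptor RAGE are its best known receptors. Embryonic fibroblasts normally make little of it. They make the collagens, matricellular proteins, proteases and growth factors of connective tissue, and MEF cultures carry positional transcription factors of the limb and trunk from which they come.

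The labels call the cells hematopoietic stem cells, while the levels were those of fibroblasts. Fibroblast markers had a median of 226 FPKM, and 20 of the 22 listed could be tested. The type I collagen gene Col1a1 had a mean of 1061 FPKM. The 24 listed markers of blood stem and progenitor cells had a median of 0.095 FPKM, and 9 could be tested. Ptprc, which encodes CD45, was listed at 0 in 5 of the 6 libraries and at 0.03 FPKM in the other, and Kit did not exceed 0.01 FPKM, whereas Gata2, a factor of blood progenitors, had a mean of 44.3 FPKM. The FPKM of a library summed to between 470460 and 501342, with the highest sum in replicate 3 of OEA8_Ctrl, and 15800 to 16132 genes were above 0. Libraries correlated with r between 0.995 and 0.997 across genes within a group and between 0.991 and 0.993 between groups. The number of reads behind the values is not known.

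S100a8 itself was 4.1, 3.98 and 6 FPKM in OEA8_Ctrl and 3.75, 6.24 and 5.44 FPKM in OEA8_69, and the libraries of the groups overlapped (log2 fold change 0.11 ± 0.17, adjusted p = 0.745). These low levels do not show overexpression in any library, and FPKM per gene cannot show a point mutation, so the groups stand here on their labels alone. S100a9 was listed at 0 in all of these libraries except replicate 2 of OEA8_Ctrl, at 0.11 FPKM. Of the receptors, Tlr4 was lower in OEA8_69, at 6.36, 6.88 and 5.68 FPKM in OEA8_Ctrl and 4.87, 4.06 and 4.35 FPKM in OEA8_69 (log2 fold change -0.43 ± 0.07, adjusted p = 0.00327). Ager, which encodes RAGE, stood between 0.78 and 1.15 FPKM in all 6 libraries. S100a13, a family member involved in the release of growth factors that lack a signal sequence, was also lower, at 26.3, 27.4 and 30.9 FPKM in OEA8_Ctrl and 21.1, 20.4 and 20 FPKM in OEA8_69 (log2 fold change -0.44).

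Far more genes fell strongly than rose strongly in OEA8_69. Of 12021 genes tested with limma on log2(FPKM + 1), 1191 were called at an adjusted p under 0.05, which is 9.91% of those tested, with 550 higher (4.58%) and 641 lower (5.33%). Called genes that moved by 1 or more on the log2 scale numbered 2 higher and 61 lower, and those that moved by 0.5 or more 46 higher and 195 lower. The median absolute log2 fold change was 0.30 among called genes and 0.08 among all tested genes, whose median signed change was 0.02. Non-overlapping libraries were seen for 27.5% of the genes, with 1848 higher (15.4%) and 1456 lower (12.1%) in OEA8_69. The count of calls rested on single libraries. It came to 754 once replicate 1 of OEA8_69 was left out and to 1814 (957 higher, 857 lower) once replicate 3 of OEA8_Ctrl was. Genes are therefore called held here when they were called in the full fit and again, in the same direction, when any 1 of the 9 libraries was left out. There were 214 held higher genes (1.78% of those tested) and 373 held lower genes (3.1%), and the counts of list members below refer to held genes unless stated. Each such count is to be read against these shares, and no list was tested as a set.

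**Figure D1:**
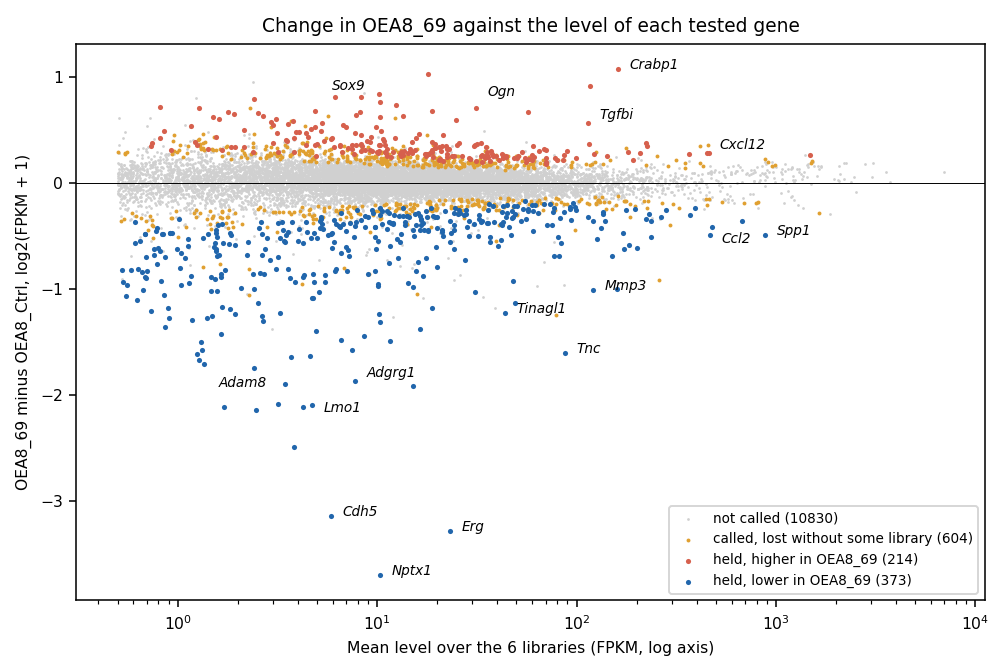
Difference between OEA8_69 and OEA8_Ctrl on the log2(FPKM + 1) scale for each of 12021 tested genes, against its mean level over the 6 libraries on a log axis. Red and blue points are the 214 held higher and 373 held lower genes, orange points are called genes lost without some library, and the lower genes reach -3.70 (Nptx1) while the highest reaches 1.08 (Crabp1).

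Held genes were found at all levels of expression. Of 3297 genes between 0.5 and 5 FPKM, 48 were held higher and 140 held lower, and the median absolute log2 fold change of these held genes was 0.63. Of 7091 genes from 5 to 50 FPKM, 128 were held higher and 174 lower, with a median of 0.36. From 50 to 500 FPKM, 37 of 1489 genes were held higher and 57 lower, with a median of 0.29. Above 500 FPKM, 1 of 144 was held higher and 2 lower. The scale of log2(FPKM + 1) understates the change of low genes, so these medians are not comparable as folds.

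The 15 largest decreases were taken among held genes with at least 5 FPKM in either group mean and libraries that did not overlap between the groups. Endothelial markers, which are given below, and clone-named genes were left out. The deepest of these decreases were of secreted, surface and regulatory proteins from several cell lineages. Nptx1, a secreted pentraxin of synapses (gene 18164, chromosome 11, 119538719 to 119547820, GRCm38), was at 21.7, 20 and 18.1 FPKM in OEA8_Ctrl and 0.52, 0.53 and 0.78 FPKM in OEA8_69 (log2 fold change -3.70 ± 0.09, adjusted p = 3.66e-10). Lmo1, a LIM-only transcriptional cofactor, was at 7.33, 9.02 and 8.48 FPKM in OEA8_Ctrl and 1.17, 1.59 and 0.82 FPKM in OEA8_69 (log2 fold change -2.09 ± 0.16, adjusted p = 4.93e-06). Adam8, a membrane-bound metalloprotease and disintegrin, was at 5.84, 5.94 and 6.28 FPKM in OEA8_Ctrl and 0.85, 0.88 and 0.94 FPKM in OEA8_69 (log2 fold change -1.89 ± 0.06, adjusted p = 3.46e-09). The adhesion receptor gene Adgrg1 was at 12.8, 11.4 and 13.9 FPKM in OEA8_Ctrl and 2.91, 2.48 and 2.87 FPKM in OEA8_69 (log2 fold change -1.87 ± 0.08, adjusted p = 2.90e-08). The lack of overlap between the groups in these 4 genes was fixed by the choice.

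Tnc, which encodes the matricellular glycoprotein tenascin C, was the most abundant gene among the 15 largest decreases. It stood at 140.3, 136 and 119 FPKM in OEA8_Ctrl and 42.1, 41 and 44.5 FPKM in OEA8_69 (gene 21923, chromosome 4, 63959785 to 64047015, log2 fold change -1.60 ± 0.06, adjusted p = 9.14e-09). Tinagl1, a glycoprotein of basement membranes, was almost constant within groups, at 61.4, 61.2 and 61.8 FPKM in OEA8_Ctrl and 25.9, 25.8 and 25.1 FPKM in OEA8_69 (log2 fold change -1.23 ± 0.04, adjusted p = 4.50e-09). Fst encodes follistatin, the secreted binder of activins, and was at 26.7, 26.9 and 25.5 FPKM in OEA8_Ctrl and 11.4, 11.5 and 10.4 FPKM in OEA8_69 (log2 fold change -1.18 ± 0.06, adjusted p = 1.09e-07). Dhrs3, a retinal reductase that lowers the supply of retinoic acid, was at 13.9, 13.8 and 17.9 FPKM in OEA8_Ctrl and 4.81, 5.7 and 6.02 FPKM in OEA8_69 (log2 fold change -1.31 ± 0.10, adjusted p = 5.32e-06). The remaining large decreases were Tmem171, Ctla2b, Crip2, Lce1g, Serpinb9b, Apol9a and Mapk12, with log2 fold changes from -1.64 (Tmem171) to -1.09 (Mapk12). Ctla2b is nearly identical to Ctla2a and may share reads with it. Apol9a, of an interferon-inducible family, varied within OEA8_69, at 21.5, 27.2 and 22.9 FPKM in OEA8_Ctrl and 4.98, 9.72 and 12.5 FPKM in OEA8_69, and its call was lost with robust moderation (adjusted p = 0.082).

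Endothelial markers also fell. All 12 that could be tested, of 21 listed, were held lower, against 3.1% of all tested genes. The filter averaged both groups, so low markers could pass it through OEA8_Ctrl alone, and the count was partly fixed by this. Cdh5 and Spns2 passed in this way, with means of 0.40 and 0.46 FPKM in OEA8_69. With a filter at 5 FPKM 6 members were called lower and 0 higher. The summed level of the whole list was 196 to 201 FPKM in OEA8_Ctrl and 52.1 to 56.6 FPKM in OEA8_69. Erg, an ETS factor of endothelial and blood stem cells, was at 42, 42.4 and 43.9 FPKM in OEA8_Ctrl and 3.17, 3.48 and 3.88 FPKM in OEA8_69. Cdh5, which encodes VE-cadherin, was at 12, 11.1 and 10.9 FPKM in OEA8_Ctrl and 0.24, 0.47 and 0.49 FPKM in OEA8_69. Several other defining genes were low in every library and lay under the level for testing. Pecam1 lay between 0.51 and 0.78 FPKM in OEA8_Ctrl and between 0.1 and 0.2 FPKM in OEA8_69, Kdr at 0.35 to 0.46 and 0.03 to 0.06 FPKM, and Tie1 was listed at 0 in the 3 OEA8_69 libraries. Other endothelial genes did not separate the groups. Vwf lay between 0.04 and 0.12 FPKM in OEA8_Ctrl and between 0.08 and 0.1 FPKM in OEA8_69, Esam between 0.03 and 0.11 FPKM and between 0.03 and 0.1 FPKM, and Tek between 0.03 and 0.08 FPKM and between 0.01 and 0.08 FPKM. Mcam, outside the list and named after its values were seen, was at 8.42, 8.19 and 8.54 FPKM in OEA8_Ctrl and 7.7, 7.53 and 8.96 FPKM in OEA8_69 (log2 fold change -0.05 ± 0.07, adjusted p = 0.674). Erg and Cdh5 had log2 fold changes of -3.28 and -3.14. Further held markers of the list were Cd93 and Spns2, with log2 fold changes of -2.08 and -2.49. In bulk libraries fewer cells of a type and less RNA per cell cannot be told apart. The part of endothelial cells in the other decreases was not tested.

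The largest increases were smaller than the decreases and were led by a retinoic acid binding protein. Crabp1, which sequesters retinoic acid in the cytoplasm (gene 12903, chromosome 9, 54764748 to 54773110), was at 109, 93.9 and 108 FPKM in OEA8_Ctrl and 220.2, 228 and 212 FPKM in OEA8_69 (log2 fold change 1.08 ± 0.06, adjusted p = 2.64e-07). Sox9, the master transcription factor of cartilage (gene 20682, chromosome 11, 112782210 to 112787757), was at 6.65, 6.99 and 7.37 FPKM in OEA8_Ctrl and 13.2, 14 and 13 FPKM in OEA8_69 (log2 fold change 0.85 ± 0.06, adjusted p = 1.31e-06). The 15 largest increases were taken by the same rule as the decreases, so libraries without overlap were a condition of their choice. Tenm3, a transmembrane protein of neuronal wiring, was at 4.37, 4.49 and 3.72 FPKM in OEA8_Ctrl and 8.42, 7.39 and 8.58 FPKM in OEA8_69 (log2 fold change 0.81 ± 0.07, adjusted p = 1.51e-05). Stmn2, a tubulin-binding stathmin of neurons, was at 7.96, 6.79 and 7.39 FPKM in OEA8_Ctrl and 12.2, 14.6 and 12.9 FPKM in OEA8_69 (log2 fold change 0.76 ± 0.08, adjusted p = 5.51e-05). Enpp2 encodes autotaxin, which makes lysophosphatidic acid, and was at 9.11, 10.2 and 7.9 FPKM in OEA8_Ctrl and 17.6, 14.7 and 14.9 FPKM in OEA8_69 (log2 fold change 0.74 ± 0.09, adjusted p = 2.28e-04).

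Several further increases had little spread within groups. Aqp1, a water channel, was at 44.9, 44 and 43 FPKM in OEA8_Ctrl and 71.8, 71 and 68.7 FPKM in OEA8_69 (log2 fold change 0.67 ± 0.04, adjusted p = 3.42e-07). Ephb6, an Eph receptor whose kinase domain is inactive, was at 19.5, 20 and 19.3 FPKM in OEA8_Ctrl and 30.4, 30.2 and 29.7 FPKM in OEA8_69 (log2 fold change 0.59 ± 0.04, adjusted p = 1.88e-06). Ackr3, which scavenges the chemokine CXCL12, was at 5.91, 5.78 and 5.99 FPKM in OEA8_Ctrl and 9.19, 10.4 and 9.84 FPKM in OEA8_69 (log2 fold change 0.65 ± 0.06, adjusted p = 1.29e-05). The other members of the 15 largest increases were Ogn and Vcan, which are proteoglycan genes, Aldh3a1, an aldehyde dehydrogenase, the tetraspanin gene Tspan18, the amino acid transporter gene Slc38a4, the cytochrome P450 gene Cyp2f2 and Rps27rt. Their log2 fold changes ran from 0.62 (Cyp2f2) to 0.92 (Rps27rt). Rps27rt is a retrocopy of Rps27 and may share reads with it. It rose while Rps27 itself was at 1058, 1151 and 1311 FPKM in OEA8_Ctrl and 1087, 1236 and 1018 FPKM in OEA8_69 (log2 fold change -0.07, adjusted p = 0.698), so its change is uncertain.

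**Figure D2:**
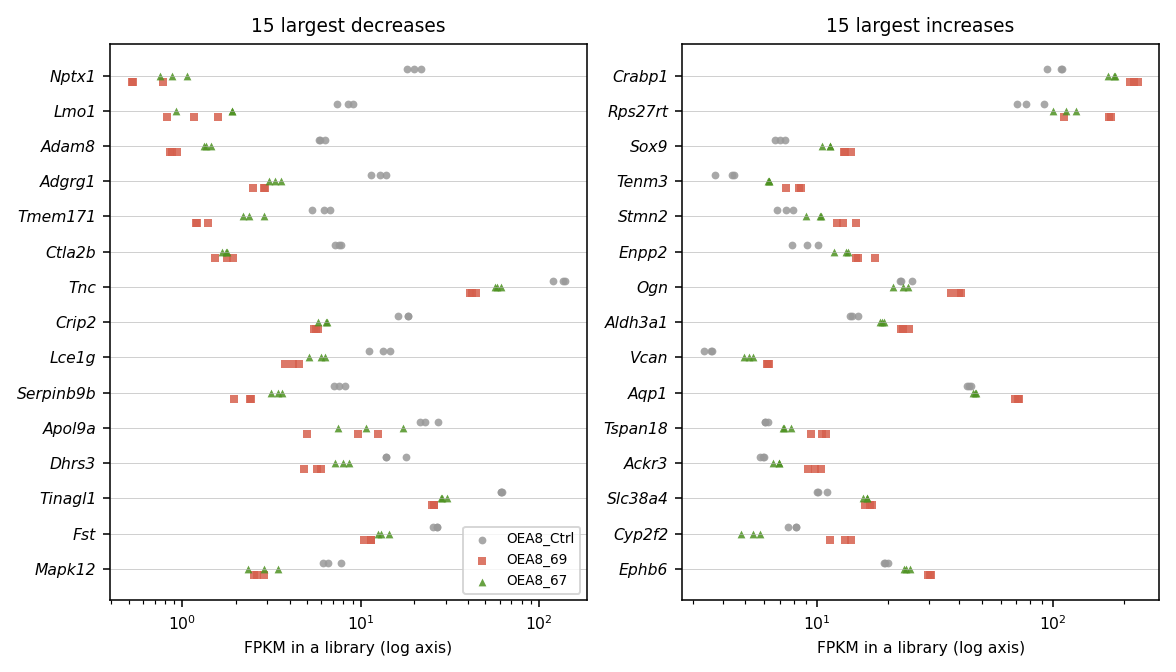
FPKM of each library on a log axis for the 15 largest decreases (left) and 15 largest increases (right) among held genes that reach 5 FPKM in either group mean and whose OEA8_Ctrl and OEA8_69 libraries are separate, endothelial markers left out. Grey circles are OEA8_Ctrl, red squares OEA8_69 and green triangles OEA8_67, and OEA8_67 lies on the same side of OEA8_Ctrl as OEA8_69 in every gene except Ogn and Cyp2f2.

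Of 31 tested matrix proteases and their regulators, 9 were held lower and 0 held higher, against 3.1% and 1.78% of all tested genes, although the median log2 fold change of the 31 was only -0.09. Mmp3 (stromelysin, gene 17392, chromosome 9, 7445822 to 7455975) was at 162, 155 and 168 FPKM in OEA8_Ctrl and 80.3, 82.3 and 76 FPKM in OEA8_69 (log2 fold change -1.01 ± 0.05, adjusted p = 4.28e-08). Mmp13, a collagenase (gene 17386, chromosome 9, 7272514 to 7283333), was at 14.3, 12.8 and 13.9 FPKM in OEA8_Ctrl and 7.03, 6.34 and 6.39 FPKM in OEA8_69 (log2 fold change -0.95 ± 0.06, adjusted p = 1.74e-06). Mmp10, a further stromelysin, was at 1.93, 2.7 and 2.62 FPKM in OEA8_Ctrl and 0.66, 0.78 and 1.24 FPKM in OEA8_69 (log2 fold change -0.86 ± 0.12, adjusted p = 5.69e-04). Mmp9, a gelatinase on chromosome 2, was at 26.7, 24.4 and 25.3 FPKM in OEA8_Ctrl and 13.8, 14.5 and 14.6 FPKM in OEA8_69 (log2 fold change -0.79 ± 0.06, adjusted p = 4.03e-06). Each OEA8_69 library was below every control library in these 4 genes.

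Other held members were lower as well. Plaur, the urokinase receptor, was at 16.3, 15.5 and 16.5 FPKM in OEA8_Ctrl and 9.36, 9.61 and 9.53 FPKM in OEA8_69 (log2 fold change -0.70 ± 0.05, adjusted p = 4.75e-06). Plau, urokinase itself, was at 11.8, 13.4 and 11 FPKM in OEA8_Ctrl and 9.54, 9.21 and 8.21 FPKM in OEA8_69 (log2 fold change -0.39 ± 0.07, adjusted p = 0.00574). Timp1, an inhibitor of metalloproteinases and thus of opposite function to the proteases, was at 734, 730.4 and 814 FPKM in OEA8_Ctrl and 588, 610.2 and 575 FPKM in OEA8_69 (log2 fold change -0.36 ± 0.05, adjusted p = 8.75e-04). Ctsl, a cathepsin, was at 428, 415 and 431 FPKM in OEA8_Ctrl and 373, 364 and 347 FPKM in OEA8_69 (log2 fold change -0.23 ± 0.04, adjusted p = 0.00445). Abundant proteases of fibroblasts did not follow. Mmp2, a gelatinase, had a log2 fold change of 0.12 and Mmp14, a membrane-bound metalloproteinase, one of 0.05, and neither was called.

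Mmp13, Mmp3, Mmp1a and Mmp10 lie next to each other among the tested genes of chromosome 9, and all 4 were held lower. Mmp1a, a collagenase singled out after its values were seen, was at 2.42, 2.55 and 2.43 FPKM in OEA8_Ctrl and 0.08, 0.24 and 0.18 FPKM in OEA8_69 (log2 fold change -1.57 ± 0.10, adjusted p = 8.53e-07). The promoters of these 4 are shown because they are neighbours with a shared direction of change and each holds the letters to which AP-1, the dimer of FOS and JUN proteins, is known to bind. Each sequence runs from 250 bases before to 50 bases after the start of the gene in RefSeq (GRCm38.p6, plus strand), and capitals mark TGANTCA, where N is any base. The pattern reads the same on both strands.
Mmp13 chr9:7272264-7272563: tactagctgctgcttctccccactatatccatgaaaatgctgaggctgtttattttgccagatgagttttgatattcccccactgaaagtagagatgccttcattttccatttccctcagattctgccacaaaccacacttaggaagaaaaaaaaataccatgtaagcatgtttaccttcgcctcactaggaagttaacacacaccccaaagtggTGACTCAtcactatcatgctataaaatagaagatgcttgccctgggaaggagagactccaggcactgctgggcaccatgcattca
Mmp3 chr9:7445572-7445871: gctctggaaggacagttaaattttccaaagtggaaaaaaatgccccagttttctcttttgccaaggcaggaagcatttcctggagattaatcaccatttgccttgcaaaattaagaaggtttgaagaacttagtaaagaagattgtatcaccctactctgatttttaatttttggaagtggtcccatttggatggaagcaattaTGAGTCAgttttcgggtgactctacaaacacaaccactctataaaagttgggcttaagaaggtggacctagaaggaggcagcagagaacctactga
Mmp1a chr9:7463891-7464190: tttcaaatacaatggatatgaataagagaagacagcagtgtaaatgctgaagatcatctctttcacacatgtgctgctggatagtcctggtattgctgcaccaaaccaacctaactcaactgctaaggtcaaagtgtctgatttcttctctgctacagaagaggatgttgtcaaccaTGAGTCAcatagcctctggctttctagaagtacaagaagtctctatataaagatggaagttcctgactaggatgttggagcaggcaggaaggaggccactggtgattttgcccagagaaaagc
Mmp10 chr9:7502092-7502391: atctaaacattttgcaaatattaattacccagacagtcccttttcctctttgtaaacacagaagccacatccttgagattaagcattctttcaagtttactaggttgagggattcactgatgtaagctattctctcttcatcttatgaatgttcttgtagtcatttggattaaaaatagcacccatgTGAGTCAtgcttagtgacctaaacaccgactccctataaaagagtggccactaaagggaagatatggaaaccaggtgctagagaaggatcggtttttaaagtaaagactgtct

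The pattern began 35 bases before the start in Mmp13, 46 in Mmp3, 73 in Mmp1a and 63 in Mmp10, once in each window. Of the 9651 tested genes with a promoter in the table, 4.85% held it. A match of letters is a description and not a site of binding. The table covered 164 of 214 held higher genes and 269 of 373 held lower genes, under the 80% set for a comparison of shares between sets, so such a comparison is void and is not given.

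Of 23 tested AP-1 and immediate early genes, 4 were held higher and 1 held lower, against 1.78% and 3.1% of all tested genes. The median log2 fold change of the 23 was -0.01. Fosl1, which encodes the FOS-related subunit FRA1, was at 28.3, 28.9 and 31.9 FPKM in OEA8_Ctrl and 17.5, 19.7 and 19.8 FPKM in OEA8_69 (log2 fold change -0.62 ± 0.07, adjusted p = 7.69e-05). Fos was at 17.5, 18 and 16.1 FPKM in OEA8_Ctrl and 23.6, 21.4 and 20.9 FPKM in OEA8_69 (log2 fold change 0.34 ± 0.06, adjusted p = 0.00629), so the 2 held genes that encode AP-1 subunits differed in direction. Egr2 was at 4.17, 3.8 and 3.49 FPKM in OEA8_Ctrl and 5.7, 6.6 and 5.54 FPKM in OEA8_69 (log2 fold change 0.53 ± 0.10, adjusted p = 0.00473), and Nr4a1 and Egr3 were also higher, with log2 fold changes of 0.35 and 0.37. Egr2, Egr3 and Nr4a1 are early response genes of growth factor signalling and do not encode AP-1 subunits.

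Genes that report on ERK signalling were likewise split. Of 23 tested, 2 were held higher and 6 held lower, against 1.78% and 3.1% of all tested genes. The median log2 fold change of the 23 was -0.04. Dusp6, the feedback phosphatase of ERK, was at 17, 17.6 and 15.3 FPKM in OEA8_Ctrl and 21.2, 20.8 and 20.7 FPKM in OEA8_69 (log2 fold change 0.31 ± 0.05, adjusted p = 0.00232) and Phlda1 was higher with a log2 fold change of 0.28. Ccnd1, which encodes cyclin D1, was at 148, 154 and 149 FPKM in OEA8_Ctrl and 102, 106 and 104 FPKM in OEA8_69 (log2 fold change -0.53 ± 0.04, adjusted p = 2.14e-06). Il1rl1, the receptor of interleukin 33, was at 154, 163 and 143 FPKM in OEA8_Ctrl and 112, 115 and 113 FPKM in OEA8_69 (log2 fold change -0.43 ± 0.05, adjusted p = 2.19e-04). Dusp1, a phosphatase of p38 and JNK, was at 35.9, 30 and 36.9 FPKM in OEA8_Ctrl and 25.4, 22.2 and 24 FPKM in OEA8_69 (log2 fold change -0.50 ± 0.07, adjusted p = 9.56e-04). Against 3.1% lower and 1.78% higher over all tested genes, 3 of 24 YAP and TEAD targets were held lower and 0 higher. They were Ankrd1 (6.24, 6.58 and 7.44 FPKM in OEA8_Ctrl and 2.57, 2.81 and 2.58 FPKM in OEA8_69, log2 fold change -1.08), Crim1 (log2 fold change -0.41) and Ccn2, which encodes connective tissue growth factor (152, 148 and 146 FPKM in OEA8_Ctrl and 122, 124 and 123 FPKM in OEA8_69, log2 fold change -0.27).

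**Figure D3:**
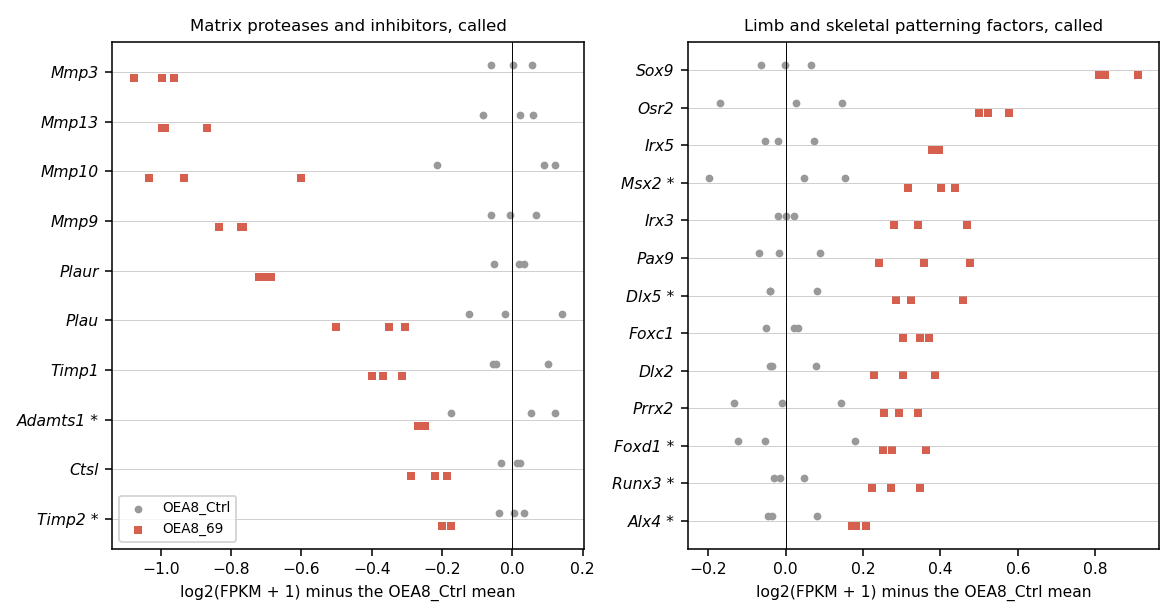
log2(FPKM + 1) of each library minus the OEA8_Ctrl mean, for called matrix proteases and inhibitors (left, 10 genes) and the called limb and skeletal patterning factors (right, 13 genes). Grey circles are OEA8_Ctrl and red squares OEA8_69, an asterisk marks a gene that is called but not held, and every red square lies to the left of the grey circles of its gene on the left panel and to the right of them on the right panel.

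Of 39 tested transcription factors of limb and skeletal patterning, 8 were held higher and 0 held lower, against 1.78% and 3.1% of all tested genes. Of the 39, 35 had a positive log2 fold change, and the median was 0.12 against 0.02 over all tested genes. Besides Sox9, the largest change was in Osr2, a zinc finger factor of limb joints and palate, at 7.99, 6.85 and 8.76 FPKM in OEA8_Ctrl and 12.2, 11.7 and 11.5 FPKM in OEA8_69 (log2 fold change 0.53 ± 0.09, adjusted p = 0.00247). Irx5 and Irx3, Iroquois homeobox genes of a shared cluster, were at 8.34, 7.76 and 7.56 FPKM in OEA8_Ctrl and 10.6, 10.7 and 10.7 FPKM in OEA8_69 (log2 fold change 0.39 ± 0.05, adjusted p = 7.79e-04) and at 6.7, 6.59 and 6.81 FPKM in OEA8_Ctrl and 8.35, 8.76 and 9.66 FPKM in OEA8_69 (log2 fold change 0.36 ± 0.07, adjusted p = 0.00419). Foxc1, a forkhead factor of mesoderm and neural crest, was at 18.2, 18.3 and 17.2 FPKM in OEA8_Ctrl and 23, 23.4 and 22.3 FPKM in OEA8_69 (log2 fold change 0.34 ± 0.05, adjusted p = 5.37e-04). Pax9, Dlx2 and Prrx2 were the other held genes, with log2 fold changes of 0.36, 0.31 and 0.30, and Prrx2 was the most abundant of them, at 161, 148 and 179 FPKM in OEA8_Ctrl and 193, 199 and 206 FPKM in OEA8_69. Prrx1 and Twist1, general factors of mesenchyme, had log2 fold changes of 0.02 and 0.02, and neither was called. Of 10 Hox genes tested 0 were held.

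Hedgehog and retinoic acid genes, which act in the same embryonic fields, were mostly higher among the held genes. Against 1.78% higher and 3.1% lower over all tested genes, 3 of 12 tested Hedgehog genes were held higher and 0 lower. They were the co-receptors Gas1, at 194, 191 and 196 FPKM in OEA8_Ctrl and 250.5, 249.9 and 257 FPKM in OEA8_69 (log2 fold change 0.38 ± 0.04, adjusted p = 2.56e-05), and Cdon (log2 fold change 0.33), and the signal transducer Smo (log2 fold change 0.20). Of 16 tested retinoic acid genes 4 were held higher and 1 lower. Besides Crabp1 these were Nr2f1, an orphan nuclear receptor, at 11.2, 12.1 and 11.8 FPKM in OEA8_Ctrl and 14.3, 14.4 and 14.5 FPKM in OEA8_69 (log2 fold change 0.28 ± 0.05, adjusted p = 0.00405), Tgm2, a transglutaminase, with a log2 fold change of 0.25, and Rdh10, which makes retinal from retinol, with one of 0.25. Dhrs3, which catalyses the reverse step, was the gene that was lower.

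Of 15 tested Notch genes 3 were held lower and 0 higher, namely the receptor gene Notch4 (1.68, 1.43 and 1.39 FPKM in OEA8_Ctrl and 0.17, 0.24 and 0.2 FPKM in OEA8_69, log2 fold change -1.05 ± 0.07, adjusted p = 2.21e-06), the ligand gene Jag1 (3.65, 3.83 and 2.96 FPKM in OEA8_Ctrl and 1.68, 1.88 and 1.8 FPKM in OEA8_69, log2 fold change -0.68 ± 0.08, adjusted p = 2.76e-04) and the target gene Hes1 (10.5, 12.8 and 13.1 FPKM in OEA8_Ctrl and 7.38, 8.59 and 7.97 FPKM in OEA8_69, log2 fold change -0.54 ± 0.08, adjusted p = 0.00116). Notch4 is best known from endothelium. Wnt genes were divided, with 4 of 33 held higher and 3 held lower, against 1.78% and 3.1% of all tested genes. Their median log2 fold change was 0.02. Sfrp2, a secreted Wnt modulator, was at 3.57, 3.87 and 3.54 FPKM in OEA8_Ctrl and 6.17, 5.42 and 5.34 FPKM in OEA8_69 (log2 fold change 0.51 ± 0.06, adjusted p = 3.42e-04). Wnt10b, a ligand, was at 0.72, 0.73 and 0.71 FPKM in OEA8_Ctrl and 1.49, 2 and 2 FPKM in OEA8_69 (log2 fold change 0.71 ± 0.08, adjusted p = 1.68e-04). Fzd2 and Dkk2 were higher by 0.27 and 0.43 on the log2 scale. Notum, an extracellular enzyme that inactivates Wnt proteins, was at 8.54, 7.45 and 8.83 FPKM in OEA8_Ctrl and 4.84, 4.51 and 5.26 FPKM in OEA8_69 (log2 fold change -0.66 ± 0.08, adjusted p = 3.02e-04), and Rspo2 and Nkd2 were lower with log2 fold changes of -0.36 and -0.35.

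In the TGF-beta and BMP pathway 3 of 41 tested genes were held higher and 5 held lower, against 1.78% and 3.1% of all tested genes. The median log2 fold change of the 41 was 0.03. Tgfbi, a secreted matrix protein induced by TGF-beta, was at 93.7, 90.1 and 92.2 FPKM in OEA8_Ctrl and 139, 135 and 136 FPKM in OEA8_69 (log2 fold change 0.57 ± 0.04, adjusted p = 1.42e-06). Id2 and Id1, direct targets of BMP signalling, were higher with log2 fold changes of 0.26 and 0.26. The ligand gene Tgfb1 was at 38.7, 34.4 and 40 FPKM in OEA8_Ctrl and 26.5, 24.5 and 28 FPKM in OEA8_69 (log2 fold change -0.50 ± 0.07, adjusted p = 6.23e-04), the co-receptor gene Eng at 27.6, 26.8 and 29.5 FPKM in OEA8_Ctrl and 18.5, 17.7 and 19.8 FPKM in OEA8_69 (log2 fold change -0.56 ± 0.05, adjusted p = 2.03e-05), and the activin subunit gene Inhbb was lower with a log2 fold change of -0.35. Tgfbi was thus higher in libraries in which Tgfb1 was lower. Fst has been given above.

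Among growth factors and receptor kinases 3 of 42 tested genes were held higher and 4 held lower, against 1.78% and 3.1% of all tested genes. The median log2 fold change of the 42 was -0.10. Hbegf, a ligand of the EGF receptor, was at 19.3, 19.2 and 19 FPKM in OEA8_Ctrl and 9.34, 9.81 and 9.37 FPKM in OEA8_69 (log2 fold change -0.94 ± 0.04, adjusted p = 5.78e-08), with almost no spread within the groups. Pdgfb was at 9.62, 8.61 and 9.6 FPKM in OEA8_Ctrl and 5.37, 4.3 and 4.74 FPKM in OEA8_69 (log2 fold change -0.83 ± 0.07, adjusted p = 1.48e-05) while its relative Pdgfc was higher, at 15.5, 16.1 and 16.1 FPKM in OEA8_Ctrl and 18.8, 20.7 and 18.8 FPKM in OEA8_69 (log2 fold change 0.27 ± 0.05, adjusted p = 0.00493). Ptn, which encodes pleiotrophin, was at 194, 202 and 199 FPKM in OEA8_Ctrl and 245, 259.6 and 254 FPKM in OEA8_69 (log2 fold change 0.35 ± 0.05, adjusted p = 4.59e-04). Fgf10, a limb bud growth factor, and the imprinted gene Igf2 were lower with log2 fold changes of -0.39 and -0.23, and Igfbp6, a binder of IGF2, was higher with one of 0.31.

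Of 23 tested chemokines and cytokines 4 were held lower and 1 held higher, against 3.1% and 1.78% of all tested genes. Ccl2, which attracts monocytes, was at 524, 533 and 573 FPKM in OEA8_Ctrl and 372, 389 and 397 FPKM in OEA8_69 (log2 fold change -0.49 ± 0.05, adjusted p = 4.72e-05). Csf1, the growth factor of macrophages, was at 288, 273 and 276 FPKM in OEA8_Ctrl and 193, 191 and 203 FPKM in OEA8_69 (log2 fold change -0.51 ± 0.04, adjusted p = 1.20e-05), and Ccl8 and Tslp were lower with log2 fold changes of -0.93 and -0.55. Cxcl12, a chemokine that retains stem cells and lymphocytes, was higher, at 409, 436 and 381 FPKM in OEA8_Ctrl and 496, 515 and 483 FPKM in OEA8_69 (log2 fold change 0.29 ± 0.05, adjusted p = 0.00411). Its scavenger receptor gene Ackr3 was also among the increases. Of 29 tested IL-17, TNF and NF-kB targets 5 were held lower and 1 higher. Log2 fold changes were positive in 15 of the 29 and negative in 14, with a median of 0.01. The lower ones include Mmp3, Mmp13 and Mmp9, and Tnfaip2 (log2 fold change -0.36), and the higher one was Sod2, a mitochondrial superoxide dismutase (log2 fold change 0.24). The list shares members with the chemokine and protease lists and is not an independent result.

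Of 22 tested complement and coagulation genes, 3 were held higher, namely C1s1 (434, 424 and 396 FPKM in OEA8_Ctrl and 541, 502 and 489 FPKM in OEA8_69, log2 fold change 0.29 ± 0.06, adjusted p = 0.00747), C1ra (132, 125 and 133 FPKM in OEA8_Ctrl and 158, 152 and 156 FPKM in OEA8_69, log2 fold change 0.26 ± 0.04, adjusted p = 0.00142) and Serpina3n, a protease inhibitor of the acute phase (log2 fold change 0.39). The first 2 encode the proteases of the first complement component. Of the 22 genes 3 were held lower. Over all tested genes 1.78% were held higher and 3.1% lower. The lower ones include the thrombin receptor gene F2r (89.3, 87.8 and 81.3 FPKM in OEA8_Ctrl and 65.3, 65 and 64.9 FPKM in OEA8_69, log2 fold change -0.40 ± 0.04, adjusted p = 6.39e-05) and Procr, the receptor of protein C (log2 fold change -0.40). In the prostaglandin genes, Ptgs2 (cyclooxygenase 2) was at 74, 76.8 and 59 FPKM in OEA8_Ctrl and 53.2, 49.6 and 48.7 FPKM in OEA8_69 (log2 fold change -0.45 ± 0.08, adjusted p = 0.0041) and Ptgs1 was lower with a log2 fold change of -0.21, while Ptges, the terminal prostaglandin E synthase, was higher with one of 0.30.

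The matricellular and elastic fibre proteins changed in both directions, with 7 of 30 tested held higher and 6 held lower, against 1.78% and 3.1% of all tested genes. Spp1, which encodes osteopontin, was at 1032, 1041 and 1028 FPKM in OEA8_Ctrl and 752, 729 and 729.6 FPKM in OEA8_69 (log2 fold change -0.49 ± 0.05, adjusted p = 2.40e-05). Thbs1, which encodes thrombospondin 1, was at 583, 548 and 507 FPKM in OEA8_Ctrl and 414, 383 and 433 FPKM in OEA8_69 (log2 fold change -0.41 ± 0.06, adjusted p = 8.92e-04). Ccn5 was at 100.4, 95 and 105 FPKM in OEA8_Ctrl and 67.4, 67.6 and 67.2 FPKM in OEA8_69 (log2 fold change -0.57 ± 0.05, adjusted p = 7.75e-06). Together with Tnc, Ccn2 and Postn these are the lower genes, most of them matricellular proteins that act on cell adhesion. The higher genes were mainly of elastic fibres and their linkers, with Fbln1 at 62, 56.5 and 65.2 FPKM in OEA8_Ctrl and 76.9, 78.7 and 75.2 FPKM in OEA8_69 (log2 fold change 0.33 ± 0.05, adjusted p = 0.00137). Efemp1 was at 113, 114 and 106 FPKM in OEA8_Ctrl and 137, 137 and 129 FPKM in OEA8_69 (log2 fold change 0.27 ± 0.04, adjusted p = 0.002). Mfap2, a microfibril protein, was at 4.34, 4.87 and 6.74 FPKM in OEA8_Ctrl and 8.38, 8.09 and 7.86 FPKM in OEA8_69 (log2 fold change 0.55 ± 0.11, adjusted p = 0.0071). Sparcl1, Fbln2, Ltbp4 and Thbs3 were higher with log2 fold changes of 0.49, 0.22, 0.29 and 0.26.

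Collagen IV genes fell. Col4a1 and Col4a2, the chains of the basement membrane collagen, which are encoded side by side on chromosome 8, were at 250.5, 247 and 233 FPKM in OEA8_Ctrl and 156, 159 and 163 FPKM in OEA8_69 (log2 fold change -0.61 ± 0.04, adjusted p = 1.53e-06) and 229, 217 and 215 FPKM in OEA8_Ctrl and 144, 143 and 154 FPKM in OEA8_69 (log2 fold change -0.58 ± 0.05, adjusted p = 5.63e-06). They were the 2 held genes among 17 tested basement membrane genes, against 3.1% held lower and 1.78% held higher of all tested genes. Among 32 other collagens and collagen enzymes 2 were held higher and 3 lower. Col8a2 was higher and Col8a1 lower, with log2 fold changes of 0.34 and -0.35, and the prolyl hydroxylase subunits P4ha3 and P4ha1 also differed in direction (0.24 and -0.21). Col18a1, a basement membrane collagen, was lower with a log2 fold change of -0.29. The type I chain genes Col1a1 and Col1a2 had log2 fold changes of 0.11 and 0.10, and neither was called.

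Proteoglycan genes were divided as well, with 4 of 25 tested held higher and 3 held lower, against 1.78% and 3.1% of all tested genes. Ogn, a small leucine-rich proteoglycan, was at 22.6, 25.4 and 22.8 FPKM in OEA8_Ctrl and 40.8, 39.8 and 36.9 FPKM in OEA8_69 (log2 fold change 0.71 ± 0.06, adjusted p = 2.03e-05). Vcan, the large hyaluronan-binding proteoglycan, was at 3.59, 3.61 and 3.33 FPKM in OEA8_Ctrl and 6.21, 6.19 and 6.27 FPKM in OEA8_69 (log2 fold change 0.68 ± 0.06, adjusted p = 8.60e-06). Has2, the hyaluronan synthase, was at 12.9, 14.7 and 12.8 FPKM in OEA8_Ctrl and 18.9, 18.5 and 19.4 FPKM in OEA8_69 (log2 fold change 0.46 ± 0.07, adjusted p = 8.39e-04). Cemip, which degrades hyaluronan, was at 86.8, 81.9 and 75.5 FPKM in OEA8_Ctrl and 62.5, 57.7 and 64.8 FPKM in OEA8_69 (log2 fold change -0.39 ± 0.06, adjusted p = 8.94e-04), so synthase and depolymerase genes differed in direction. Dcn and Fmod, which encode decorin and fibromodulin, were lower with log2 fold changes of -0.36 and -0.42. Gpc3, a glypican, was higher with one of 0.36.

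Integrins were lower without exception among the held genes. Of 31 integrin and focal adhesion genes 6 were held lower and 0 higher, against 3.1% and 1.78% of all tested genes. All 6 encode alpha or beta chains of integrins. Itga6, a laminin-binding chain, was at 6.79, 7.37 and 5.18 FPKM in OEA8_Ctrl and 3.05, 3.09 and 3.1 FPKM in OEA8_69 (log2 fold change -0.86 ± 0.09, adjusted p = 1.08e-04). Itgb3, the beta chain of the vitronectin receptor, was at 7.38, 7.09 and 6.59 FPKM in OEA8_Ctrl and 4.74, 4.68 and 4.82 FPKM in OEA8_69 (log2 fold change -0.48 ± 0.05, adjusted p = 1.39e-04). Itga4 was at 1.66, 1.68 and 1.31 FPKM in OEA8_Ctrl and 0.66, 0.78 and 0.63 FPKM in OEA8_69 (log2 fold change -0.59 ± 0.08, adjusted p = 4.45e-04). Itga7, Itga8 and Itga3 were lower with log2 fold changes of -0.37, -0.44 and -0.25. Itgb1, the partner of many alpha chains, had a log2 fold change of -0.09 and was not called. Of 16 cadherins and protocadherins 2 were held higher, Cdh2 (N-cadherin, 17.2, 16.7 and 16.2 FPKM in OEA8_Ctrl and 20, 21.2 and 21.1 FPKM in OEA8_69, log2 fold change 0.30 ± 0.05, adjusted p = 0.00162) and Pcdh18, and 1 lower, Pcdh1. Of 36 axon guidance genes 2 were held higher, Tenm3 and Ephb3, and 5 lower, among them Nrp1, a receptor of semaphorins and VEGF (19.2, 20.1 and 17.6 FPKM in OEA8_Ctrl and 14.5, 14 and 14 FPKM in OEA8_69, log2 fold change -0.39 ± 0.05, adjusted p = 4.23e-04), Sema7a, Sema3c and Ntn4 (log2 fold change -0.48).

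**Figure D4:**
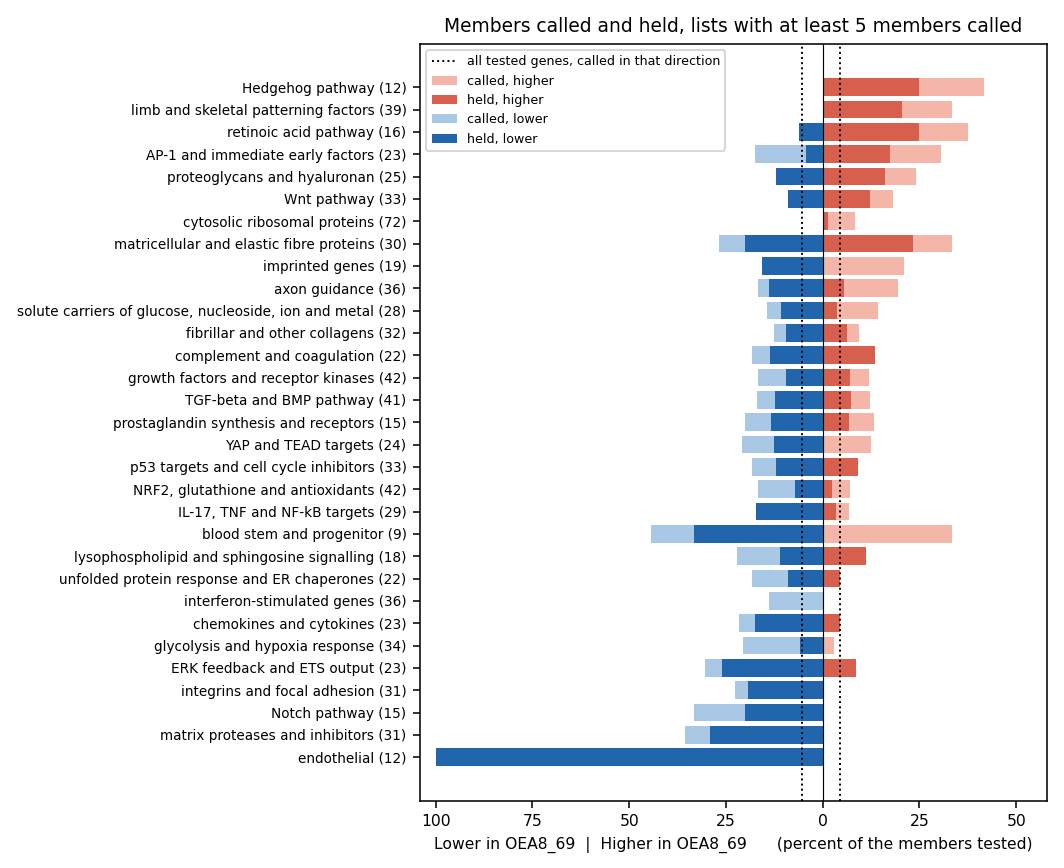
Percent of the tested members of each gene list that were lower (left) or higher (right) in OEA8_69, for lists with at least 5 members called. Pale bars are called members, dark bars members held without any 1 library, the number of members tested is in brackets, and dotted lines mark the 5.33% lower and 4.58% higher calls over all tested genes, so that Hedgehog, patterning and retinoic acid genes lie at the higher end and Notch, protease and integrin genes at the lower end next to the endothelial markers.

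Of 41 DNA replication genes 0 were called by limma in either direction and 2 had an unadjusted p under 0.05, with 5 higher and 2 lower without overlap of the libraries, against 15.4% and 12.1% of all tested genes, and leaving out replicate 3 of OEA8_Ctrl gave 3 higher and 1 lower. Of 44 mitotic genes 40 had a positive log2 fold change with a median of 0.10, 20 were higher without overlap, against 15.4% of all tested genes, and 4 were called higher, against 4.58%. Leaving out replicate 3 of OEA8_Ctrl gave 11 calls, leaving out replicate 1 of either group or replicate 2 of OEA8_69 gave 1, and leaving out replicate 3 of OEA8_69 gave 2. The checkpoint kinase gene Bub1b was the held one, at 19.2, 21 and 19.3 FPKM in OEA8_Ctrl and 23, 23.2 and 23.2 FPKM in OEA8_69 (log2 fold change 0.21 ± 0.04, adjusted p = 0.0111). Among p53 targets and cell cycle inhibitors 3 of 33 were held higher and 4 lower, against 1.78% and 3.1% of all tested genes. The lower ones include Cdkn1a, which encodes p21, at 189, 183 and 205 FPKM in OEA8_Ctrl and 157, 169.8 and 157 FPKM in OEA8_69 (log2 fold change -0.25 ± 0.05, adjusted p = 0.00739), Cdkn2b (log2 fold change -0.26) and Mdm2, the p53 inhibitor (-0.24). Cdkn1b, which encodes p27, was higher at 31.6, 33.6 and 33.8 FPKM in OEA8_Ctrl and 39.2, 40.1 and 38.4 FPKM in OEA8_69 (log2 fold change 0.24 ± 0.05, adjusted p = 0.00548), as was the death receptor gene Fas (log2 fold change 0.22).

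Of 72 cytosolic ribosomal protein genes 70 had a positive log2 fold change, with a median of 0.13, and 6 were called higher, against 4.58% of all tested genes. Their summed level was 64861 and 65305 FPKM in replicates 1 and 2 of OEA8_Ctrl, 75093 FPKM in replicate 3 and 72953 to 77400 FPKM in OEA8_69. Replicate 3 of OEA8_Ctrl thus lay within the range of OEA8_69. Without it 50 of the 72 were called, and without any other library 1 or 2. Rpl13 was the held member, at 1285, 1302 and 1443 FPKM in OEA8_Ctrl and 1579, 1652 and 1617 FPKM in OEA8_69 (log2 fold change 0.27 ± 0.06, adjusted p = 0.00934). Of 61 nuclear genes of oxidative phosphorylation 1 was called, the held gene Ndufa4 (log2 fold change 0.27), and 11 without replicate 3 of OEA8_Ctrl.

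Apol9a, held lower above, was not on the list of interferon-stimulated genes. The listed genes were lower in value throughout, yet none was held. All 36 tested had a negative log2 fold change, with a median of -0.69 against 0.02 over all tested genes, and 14 were lower without overlap between the groups, against 12.1% of all tested genes. Their summed level was 1170, 1465 and 1203 FPKM in OEA8_Ctrl and 498, 812 and 1056 FPKM in OEA8_69, so the OEA8_69 libraries differed from each other by more than the controls did. Of the 36, 5 were called lower, against 5.33% of all tested genes, among them Oas1a (20.7, 23.8 and 19.2 FPKM in OEA8_Ctrl and 5.79, 11.5 and 13.6 FPKM in OEA8_69, adjusted p = 0.0454). The number was 0 without replicate 1 of OEA8_69, 3 without replicate 2 of OEA8_69, 17 without replicate 3, 2 without replicate 1 or 2 of OEA8_Ctrl and 9 without replicate 1 of OEA8_67. Isg15, a ubiquitin-like modifier, was at 45, 63.6 and 51.1 FPKM in OEA8_Ctrl and 12.8, 22.1 and 40.8 FPKM in OEA8_69 (log2 fold change -1.18 ± 0.37, adjusted p = 0.0712) and did not pass. Of 18 class I antigen presentation genes, which interferon also raises, all had a negative log2 fold change with a median of -0.20, 3 were called lower and 0 were held, with 0 called when replicate 1 of OEA8_69 was left out, 1 when either of the first 2 controls or the last OEA8_69 library was, and 5 when replicate 3 of OEA8_67 was.

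**Figure D5:**
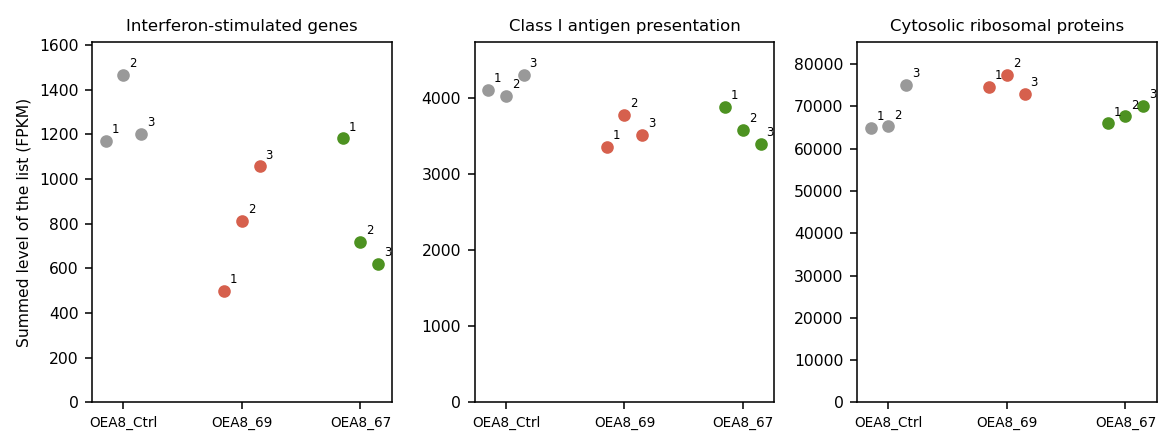
Summed FPKM of 3 gene lists in each library, with the replicate number beside each point and axes that start at 0. In the left panel the interferon-stimulated genes spread from 498 to 1056 FPKM within OEA8_69, and in the right panel replicate 3 of OEA8_Ctrl (75093 FPKM) lies with the OEA8_69 libraries for the ribosomal protein genes.

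OEA8_69 was also tested against OEA8_67 directly, to see which differences set it apart from the other mutant. In this contrast 378 genes were called (3.14% of those tested), 227 higher and 151 lower in OEA8_69, but the count ran from 122 without replicate 1 of OEA8_69 to 1033 without replicate 3 of OEA8_Ctrl, and 101 genes (0.84%) were called under every left-out library. The genes named below are among those 101 unless stated otherwise. The contrast shares the OEA8_69 libraries with the comparison with OEA8_Ctrl, so values are given side by side and no overlap is counted. For most of the largest decreases OEA8_67 was also well below OEA8_Ctrl. Nptx1 was not called between the mutants (log2 difference of OEA8_69 minus OEA8_67 -0.24 ± 0.09, adjusted p = 0.176), nor were Lmo1, Adgrg1, Ctla2b, Crip2, Apol9a and Mapk12. Tmem171 was lower in OEA8_69 (-0.61 ± 0.09, adjusted p = 0.00484), as was Tnc, given below. Adam8, Serpinb9b, Dhrs3, Lce1g and Tinagl1 were called lower in the full fit but are not among the 101. Of 12 tested endothelial markers 5 were called, against 3.14% of all tested genes, among them Erg (-0.70 ± 0.08, adjusted p = 7.57e-04). Some increases were shared in part. Crabp1 was at 182, 171 and 183 FPKM in OEA8_67 and Sox9 at 11.4, 11.4 and 10.6 FPKM, above OEA8_Ctrl. Both were called higher in OEA8_69 than in OEA8_67 in the full fit (0.30 ± 0.06, adjusted p = 0.0206 and 0.25 ± 0.06, adjusted p = 0.0374). Neither gene was among the 101, so each call was lost without some library. Slc38a4 was not called between the mutants (0.04 ± 0.05, adjusted p = 0.687). The held Notch genes Notch4, Jag1 and Hes1 had OEA8_67 means of 0.27, 1.70 and 8.35 FPKM. Of 15 tested Notch genes 0 were called between the mutants.

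Ogn was at 22.6, 25.4 and 22.8 FPKM in OEA8_Ctrl, 24.4, 20.9 and 23.2 in OEA8_67 and 40.8, 39.8 and 36.9 in OEA8_69 (OEA8_69 minus OEA8_67 0.75 ± 0.06, adjusted p = 1.48e-04). Aqp1 was at 44.9, 44 and 43 FPKM in OEA8_Ctrl, 45.7, 46.9 and 47.3 in OEA8_67 and 71.8, 71 and 68.7 in OEA8_69 (0.59 ± 0.04, adjusted p = 2.37e-05), so that in both genes the OEA8_69 libraries lay above all others. Cyp2f2 was at 8.17, 7.54 and 8.17 FPKM in OEA8_Ctrl, 5.76, 5.4 and 4.81 in OEA8_67 and 13.9, 13.2 and 11.3 in OEA8_69 (1.13 ± 0.08, adjusted p = 3.44e-05), and here OEA8_67 was lower than OEA8_Ctrl. Cxcl12 in OEA8_67 was at 388, 394 and 388 FPKM, within or near the range of OEA8_Ctrl (0.35 ± 0.05, adjusted p = 0.00437). Fbln1, Sfrp2, Gas1, Osr2, C1ra, Serpina3n and Col8a2 were also higher in OEA8_69 than in OEA8_67 by this test, with log2 differences from 0.27 (C1ra) to 0.64 (Osr2).

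Mmp3 was at 162, 155 and 168 FPKM in OEA8_Ctrl, 131, 126 and 132 in OEA8_67 and 80.3, 82.3 and 76 in OEA8_69 (-0.70 ± 0.05, adjusted p = 2.37e-05), and Mmp13 at 14.3, 12.8 and 13.9 FPKM in OEA8_Ctrl, 10.3, 8.96 and 9.57 in OEA8_67 and 7.03, 6.34 and 6.39 in OEA8_69 (-0.49 ± 0.06, adjusted p = 0.00231), with OEA8_67 between the other groups in both. Mmp9 (-0.12 ± 0.06, adjusted p = 0.289) and the receptor gene Plaur (-0.18 ± 0.05, adjusted p = 0.0954) were not called between the mutants. Of the 31 tested members of the protease list 9 were called, against 3.14% of all tested genes. Tnc (56.9, 61.2 and 57.9 FPKM in OEA8_67, -0.45 ± 0.06, adjusted p = 0.00231), Hbegf (12.1, 12.5 and 12.3 FPKM, -0.34 ± 0.04, adjusted p = 0.00201) and Ccnd1 (125, 129 and 128 FPKM, -0.29 ± 0.04, adjusted p = 0.00198) had the same order. Thbs1 and Ccn2 did not, since their OEA8_67 libraries, at 562, 565 and 558 and 144, 153 and 147 FPKM, lay within or near the range of OEA8_Ctrl (-0.46 ± 0.06, adjusted p = 0.00213 and -0.27 ± 0.04, adjusted p = 0.00397). Fmod had another order, with OEA8_67 the lowest at 16.9, 18 and 18.5 FPKM (0.42 ± 0.05, adjusted p = 0.00125).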

How the data were processed

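Total RNA was sequenced, and the authors removed adapter-containing, poly-N and low-quality reads. HISAT2 2.0.4 and Bowtie2 2.2.5 with the build mm10 appear in the processing notes of the submitters, and RSEM in the study's methods, without a version. The authors deposited 1 table of FPKM per gene and library, rounded to 2 decimals, with means of each group that were not used. Low values did not come out as multiples of 1 read (16.5% of 15022 ratios within 0.1 of a whole number), so depth is unknown and no count test was run.

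limma 3.58.1 in R 4.3.3 was fitted to log2(FPKM + 1) of all 9 libraries, with a trend in the moderation and 6 residual degrees of freedom, for genes averaging 0.5 FPKM or more in the 6 libraries compared. Adjusted p-values are Benjamini-Hochberg values over the 12021 genes of a contrast, genes under 0.05 are called, and errors of log2 fold changes are standard errors. The fit was tested on simulated data. The replicates are named by the numbers in the labels. Alternatives were other pseudocounts, filters, scalings, moderations, a replicate block, only 6 libraries, and each library left out. Promoters are RefSeq sequences of GRCm38.p6, and positions of 11990 tested genes come from the same release. Figures were drawn with matplotlib 3.10.9.

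The text names S100a8 and S100a9, the 15 largest increases and decreases among held genes with at least 5 FPKM and without overlap, leaving out endothelial markers and clone-named genes, and from each gene list the 4 held genes of smallest adjusted p in each direction. Other genes are named to define a list, to complete the held genes of a list or as neighbours, and were chosen after their values were seen. 1 gene that the rule names is not reported here. The comparison, its members and the gene lists were chosen with earlier results of these data known.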

Additional observations from a re-analysis of the deposited data

How the results depend on the processing

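The 1191 calls ranged from 754 to 1814 when 1 library was left out, the higher ones from 294 to 957 and the lower ones from 452 to 857, and those that moved by 1 or more on the log2 scale from 60 to 78. Calls between OEA8_69 and OEA8_67 ranged from 122 to 1033. With only the 6 libraries 329 were higher, and with a filter at 5 FPKM (8724 genes tested) 423 were lower. The count of genes moved by 1 or more was 131 with a pseudocount of 0.1, 98 with 0.5 and 23 with the filter at 5 FPKM. Between OEA8_69 and OEA8_67, 216 were called with no filter (18052 genes tested). Only-6-library fits could not be made for that contrast. Median-of-ratios scaling gave 448 higher and 723 lower, a shift of -0.01 in the median of all genes. Same-numbered libraries of OEA8_Ctrl and OEA8_69 had deviations correlated at 0.147, 0.00255 and -0.0716, and other pairs between -0.194 and 0.133. With 3 libraries in a group these values cannot decide whether the numbers pair the libraries. With a replicate block 992 were called (437 higher and 555 lower), and 233 between OEA8_69 and OEA8_67. Of 3485 alternative values of 176 named genes 3483 kept their direction and side of the threshold. All of these genes but S100a8 were chosen as held, so their values with 1 library left out had to come out the same. Only the other alternatives could have changed them. Apol9a lost its call with robust moderation (adjusted p = 0.082), and the log2 fold change of S100a8, which was not called, ran from -0.024 without replicate 2 of OEA8_69 to 0.28 without replicate 1. Where no cause is given by the number of genes or libraries, the cause was not tested.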

Other observations

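The list counts of this paragraph stand against 1.78% held higher and 3.1% held lower of all tested genes. Counts this small say little about a list as a whole. Of 28 solute carriers 1 was held higher, the glutamate transporter gene Slc1a3 (log2 fold change 0.32), and 3 lower. Slc20a1, a phosphate transporter, was at 33.2, 36.2 and 34.2 FPKM in OEA8_Ctrl and 20.1, 20.9 and 20.4 FPKM in OEA8_69 (log2 fold change -0.73 ± 0.05, adjusted p = 2.64e-06), and the zinc transporter genes Slc39a8 and Slc30a4 were lower with log2 fold changes of -0.48 and -0.26. Of 34 ATF4, amino acid and one-carbon genes Asns, an asparagine synthetase, and Slc38a4 were held higher and Slc38a1 lower (0.20, 0.63 and -0.26). Of 34 cholesterol and fatty acid genes Scd2, a desaturase, was held higher (0.24). Of 37 lysosome and autophagy genes the cathepsin genes Ctsh and Ctsl were held lower (-0.44 and -0.23). Of 18 lysophospholipid and sphingosine genes Enpp2 and Plpp3 were held higher and Plpp2 and Spns2 lower (0.74, 0.20, -0.35 and -2.49). Of 19 imprinted genes Igf2, Dcn and Slc22a18 were held lower (-0.23, -0.36 and -0.48). Of 42 NRF2, glutathione and antioxidant genes 1 was held higher, Aldh3a1, and 3 lower, namely Gpx7 (log2 fold change -0.61), Gclc (-0.32), the catalytic subunit of glutathione synthesis, and Txnrd1 (-0.17). Of 22 genes of the unfolded protein response Herpud1 was held higher (0.24) and Atf6 and Hyou1 lower (-0.41 and -0.28), and of 24 heat shock proteins Hspb8 and Hsp90aa1 were lower (-0.28 and -0.24). Of 34 glycolysis and hypoxia genes Pfkl and P4ha1 were held lower (-0.21 and -0.21). Of 20 histone genes H2bc4 and H1f2 were held lower (-0.55 and -0.34), and they may share reads with close copies.

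Of 7 neuronal genes tested Stmn2 and Ncam1 were held higher and Nptx1 and Uchl1 lower, against 1.78% and 3.1% of all tested genes. Tfap2b, a factor of neural crest, was higher at 31.9, 31.9 and 28.9 FPKM in OEA8_Ctrl and 39.1, 40.1 and 39.2 FPKM in OEA8_69 (log2 fold change 0.34 ± 0.05, adjusted p = 5.51e-04), while Nes, which encodes the intermediate filament nestin, was lower at 7.01, 7.27 and 7.73 FPKM in OEA8_Ctrl and 3.71, 3.68 and 3.31 FPKM in OEA8_69 (log2 fold change -0.87 ± 0.07, adjusted p = 5.92e-06). Ly6a, which encodes the stem cell antigen SCA-1, was at 199, 209 and 221 FPKM in OEA8_Ctrl and 133, 139 and 137 FPKM in OEA8_69 (log2 fold change -0.62 ± 0.05, adjusted p = 9.32e-06). Single held markers of other lists were Trp63, a factor of stratified epithelium, and Plin4, a lipid droplet protein, which were higher (0.63 and 0.35), and Pparg, the factor of fat cells, Mylk, a myosin kinase of smooth muscle, Lyz2, a lysozyme of myeloid cells, and Hhex, a homeobox factor, which were lower (-0.48, -0.49, -0.37 and -0.45). The summed level of the 24 blood stem and progenitor genes, most of it Ly6a, was 271 to 293 FPKM in OEA8_Ctrl and 208 to 213 FPKM in OEA8_69.

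Held genes stood beside a held gene of the same direction, in the order of tested genes along a chromosome, in 47 of 370 lower and 21 of 214 higher genes with a position. Over all tested genes 3.1% were held lower and 1.78% higher. The share of neighbours to be expected from this was not worked out, so the counts are not read as clustering. After the metalloproteinases, the longest runs held 3 genes each and were singled out after their values were seen. They were Raet1e, H60b and Raet1d on chromosome 10, ligands of the natural killer receptor NKG2D (log2 fold changes -0.83, -0.82 and -0.83), Ivl, Lce1g and Lce1h on chromosome 3, genes of the epidermal cornified envelope (-0.66, -1.44 and -1.23), Ctla2a, Ctla2b and the clone-named 4930486L24Rik on chromosome 13, and the higher genes Gadd45g, Diras2 and Syk on chromosome 13 (0.36, 0.54 and 0.53). Close copies within such runs may share reads. By chromosome, 3.43% (chromosome 4) to 7.34% (chromosome 15) of the tested genes were held. On chromosome 6, 26 were held higher and 9 lower, and on chromosome 11, 8 were held higher and 33 lower. Both chromosomes were singled out after their values were seen, and over all tested genes 214 were held higher and 373 lower.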
